A study of Mus musculus with 46 samples.

Results

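The genes described here are the 9 members of the set CD28 family costimulation and ligands. The receptors Cd28, Icos and Cd226 are its T-cell side, and Icosl, Cd80, Cd86, Pvr, Cd276 and Vtcn1 are its ligand side. They were taken by symbol, with no filter on their values, from a table of 48795 mouse genes measured by RNA-seq, and all 9 symbols were found. The choice of the genes was made with earlier results of these data known. The 46 samples were 3 cultures of MC-38, a mouse colon carcinoma line, and 43 subcutaneous MC-38 tumors. Of the tumors, 3 were baseline, 5 had received isotype control and 5 PD-1 Ab by day 11 post-implant (1 dose), 5 and 5 by day 15 (2 doses), and 10 were PD-1cKO and 10 WT.

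The methods give the mice of both studies as females of 8 to 10 weeks. Antibody mice were C57BL/6NTac and received the PD-1 antibody muDX400 at 5 mg/kg or its isotype control from day 7. The floxed allele of PD-1cKO mice was made in C57BL/6NTac embryonic stem cells. PD-1cKO mice carried floxed Pdcd1 (exons 2 to 3) and a tamoxifen-inducible Cre at the ROSA26 locus, so the deletion was not limited to T cells. Both PD-1cKO and WT littermates received tamoxifen at 40 mg/kg for 5 days, and the labels place their tumors at day 28 while the methods name day 22. Nothing states whether tumors with the same replicate number share a litter or a day, so p-values measure only the spread between tumors.

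CD28 gives a T cell the second signal that antigen recognition needs, when it binds CD80 or CD86 on a presenting cell, and PD-1 signaling is known to act on this step. ICOS is a close relative of CD28 that appears after activation and binds ICOSL. CD226 belongs to another branch of the immunoglobulin superfamily and binds PVR and nectin-2, for which it competes with the inhibitory receptors TIGIT and CD96, as CD28 competes with CTLA-4 for CD80 and CD86. CD276 and VTCN1 (B7-H3 and B7-H4) are relatives of CD80 that are often found on tumor cells.

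Values are FPKM, which correct fragment numbers for the length of a transcript and the size of a library, and so are levels per length. They hold no read number, so the depth behind each value is unknown. Short noncoding RNAs took 30.2% to 66.5% of the FPKM in the WT and PD-1cKO tumors and at most 0.075% elsewhere, so levels were not compared between the antibody and the tamoxifen study. The tumor labelled isotype day 11 replicate 1 had 54.6% of its FPKM in mitochondrial genes, against at most 7.65% in any other sample, and PD-1cKO replicates 4 and 8 correlated least with their own group (median r of 0.88 and 0.853). Gene-level Pdcd1 was 5.05 to 20.0 FPKM in tumors labelled PD-1cKO and 1.71 to 7.02 FPKM in WT tumors, which does not check the deletion, since the removed exons are not separated from the rest. In bulk tumor RNA, fewer cells of a type and less RNA per cell cannot be told apart.

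**Figure D1:**
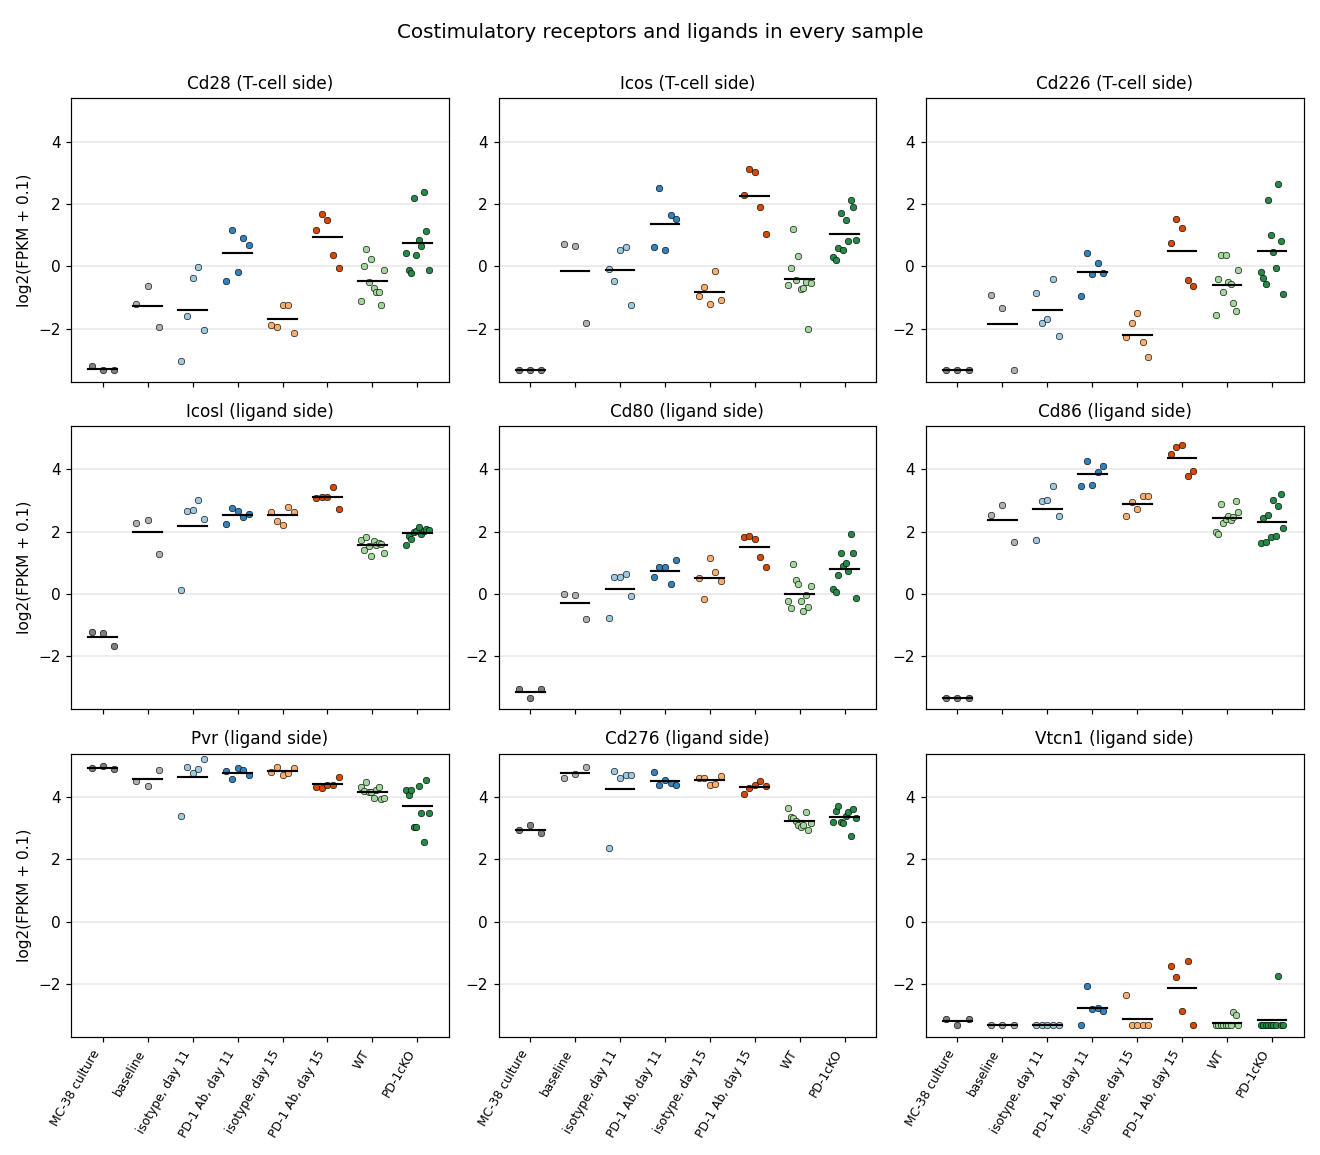
Each panel plots 1 gene as log2(FPKM + 0.1) in the 46 samples, with a point per sample and a bar at the group mean. Cd28, Icos and Cd226 lie at or near the floor in MC-38 culture and at day 15 are above every isotype tumor of that day in all 5 PD-1 Ab tumors, while Pvr and Cd276 are high in all groups.

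The cultured line and the tumors separated the genes by where they were found. Pvr, the ligand shared by CD226, TIGIT and CD96, was 29.5, 30.3 and 32.0 FPKM in the 3 cultures, and Cd276 was 7.03, 7.59 and 8.41 FPKM. The receptors were absent or nearly so: Icos and Cd226 were listed at 0 in all 3 cultures, and Cd28 was 0.0083 FPKM in 1 of them. Cd86 was also listed at 0 in the 3 cultures, and Cd80 reached at most 0.0221 FPKM. Icosl was low but present in each culture (0.218 to 0.328 FPKM).

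Tumors of isotype control mice at day 15 were set against culture to ask which of these genes the growing tumor adds. Genes entered the test if 1 of the groups averaged 0.5 FPKM or more. A call needed an adjusted p below 0.01 by limma (Benjamini-Hochberg over the whole table tested) and a 2-fold change. Of the 5 members tested, 4 were called higher in tumors, beside 14.2% of all genes tested. Icosl rose from a mean of 0.290 ± 0.0625 (SD, n = 3) to 5.73 ± 0.935 FPKM (SD, n = 5), which is 14.9-fold on the log2(FPKM + 0.1) scale (adjusted p = 2.2e-07). Cd80 rose 12.7-fold on that scale to 1.41 ± 0.494 FPKM, and Cd276 rose 3.01-fold to 23.3 ± 2.11 FPKM. Cd86 was called as well and reached 7.50 ± 1.4 FPKM, and no fold is given against a group listed at 0. Pvr did not pass, at 28.6 ± 2.14 FPKM in tumors against 30.6 ± 1.26 FPKM in culture (adjusted p = 0.32).

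Cd80 and Icosl are the ligands that rose from near 0 and for which promoter sequence was at hand, so the bases upstream of the starts that RefSeq gives are shown. RefSeq promoter sequences on GRCm38.p6 were found for 4 of the 9 genes (Cd80, Icosl, Cd276 and Vtcn1), and the window before the Cd276 start lies inside an annotated exon of that gene. The Cd80 window is chr16:38458683-38458932 on the plus strand and the Icosl window is chr10:78069118-78069301 on the plus strand, both outside annotated exons of the gene. GENCODE begins Cd80 further upstream, at position 38455561, so the Cd80 window lies in an intron of its longest transcripts, while the Icosl window ends where the annotated gene begins. Capitals mark matches on either strand to TGANTCA (AP-1) and CCAAT (the CCAAT box). The GC box (GGGCGG), the GAS element (TTCNNNGAA) and the ISRE were searched as well and had no match in these windows.
Cd80: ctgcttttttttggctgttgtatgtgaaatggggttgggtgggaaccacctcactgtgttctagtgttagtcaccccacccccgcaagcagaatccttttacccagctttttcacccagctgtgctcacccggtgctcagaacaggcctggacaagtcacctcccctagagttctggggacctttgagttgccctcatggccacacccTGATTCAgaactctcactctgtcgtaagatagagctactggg
Icosl: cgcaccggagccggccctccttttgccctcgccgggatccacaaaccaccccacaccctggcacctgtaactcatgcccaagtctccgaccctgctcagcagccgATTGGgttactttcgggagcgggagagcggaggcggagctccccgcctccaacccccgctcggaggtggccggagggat

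The 250 bases before the RefSeq start of Cd80 held 3 CG pairs at 52.8% GC and 1 match to TGANTCA, which 6.75% of the 32851 promoters in the table hold in a window of that length. The 184 bases before Icosl held 15 CG pairs at 67.9% GC and 1 match to CCAAT, which 25.7% of promoters hold in such a window. Of the searched letters that had no match, the GC box was found in 32.7% of windows of 250 bases, the ISRE in 2.98% and the GAS element in 7.02%. A match is a description of letters only.

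The receptors gave the largest differences among the members after 2 doses of PD-1 Ab. CD28 is the founding receptor of the family. Cd28 was 0.173, 0.158, 0.323, 0.321 and 0.129 FPKM in the 5 isotype tumors at day 15. It was 2.16, 3.08, 2.73, 1.20 and 0.866 FPKM in the 5 PD-1 Ab tumors. The groups did not overlap, and the lowest treated tumor was above the highest control. Cd28 rose by 2.62 ± 0.37 on the log2 scale (SE), or 6.16-fold (95% confidence interval 3.51 to 10.8, adjusted p = 0.0012).

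Icos, the receptor induced by activation, was 0.413, 0.529, 0.337, 0.80 and 0.371 FPKM in the isotype tumors. Its values were 4.76, 8.72, 8.08, 3.62 and 1.95 FPKM in the PD-1 Ab tumors, again with no overlap. The log2 difference of 3.09 ± 0.38 (SE) was the largest of the 8 members tested, at 8.52-fold (4.77 to 15.2, adjusted p = 0.00089).

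Cd226, the receptor for Pvr, was the lowest of the receptors in isotype tumors, at 0.106, 0.182, 0.257, 0.0847 and 0.034 FPKM. It was 1.58, 2.77, 2.27, 0.632 and 0.552 FPKM after PD-1 Ab. All 5 treated tumors lay above all 5 controls, and PD-1 Ab replicates 4 and 5 were the lowest treated tumors for each of the 3 receptors. Cd226 rose by 2.67 ± 0.47 on the log2 scale (SE), or 6.38-fold (3.12 to 13.1, adjusted p = 0.0033). This call did not hold without isotype replicate 5 or without PD-1 Ab replicate 1, 2 or 3 (adjusted p = 0.010 to 0.014).

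All 3 receptors were called higher at day 15, as was 1 of the 5 ligands tested, beside 5.03% of 15062 genes. Complete separation of the groups in the same direction was seen for these 4 members and for 9.23% of genes. The median log2 difference was 2.67 over the receptors and 0.58 over the ligands tested, beside -0.04 over all genes.

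**Figure D2:**
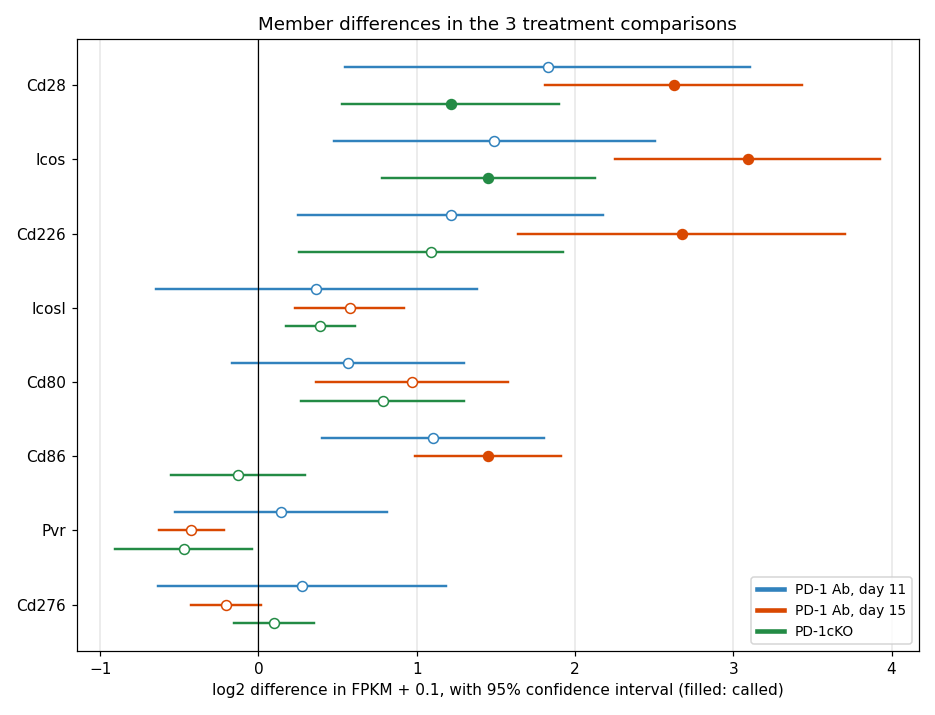
Points are log2 differences for the 8 members tested in the 3 treatment comparisons, with 95% confidence intervals from limma, and filled points are called. At day 15 the 3 receptors and Cd86 are called, and in PD-1cKO against WT Cd28 and Icos are called.

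After 1 dose the mean levels of the receptors were above those of the controls, but none passed. Cd28 was 0.0226, 0.235, 0.667, 0.879 and 0.145 FPKM in isotype tumors at day 11 and 0.617, 2.15, 0.778, 1.76 and 1.51 FPKM in PD-1 Ab tumors. Icos was 0.848, 0.631, 1.36, 1.44 and 0.323 FPKM in the former and 1.43, 5.63, 1.34, 3.07 and 2.77 FPKM in the latter. The groups overlapped for both genes, with 3 of 5 treated tumors above every control. The differences were 1.83 ± 0.59 for Cd28, 1.49 ± 0.47 for Icos and 1.21 ± 0.44 for Cd226 on the log2 scale (SE), with adjusted p of 0.49, 0.48 and 0.64 by limma.

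At day 11, 0 of 8 members tested and 0 of 14556 genes (0.0%) were called, while 4 members and 895 genes had an unadjusted p under 0.05. The 4 members were the 3 receptors and Cd86. In simulated data of this design, 61% of the genes given a log2 change of 2 were called. That change is larger than the receptor differences, and the noise was drawn for each gene separately. The 61% is thus not the rate at which these receptors would be called. Without isotype replicate 1, the mitochondria-rich tumor, the differences were 1.42 for Cd28, 1.5 for Icos and 1.35 for Cd226, with adjusted p of 0.18, 0.15 and 0.14. Isotype replicates 1 to 3 also carry sample identifiers from another run of numbers than the remaining day 11 tumors. With that run as a covariate the 3 differences were 1.45, 1.68 and 1.13. In that fit only isotype replicates 4 and 5 share a run with the PD-1 Ab tumors and set the differences.

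In tumors labelled PD-1cKO, 2 of the 3 receptors were higher than in WT. Cd28 ranged from 0.32 to 1.36 FPKM in WT (median 0.562) and from 0.769 to 5.16 FPKM in PD-1cKO (median 1.36). Icos ranged from 0.151 to 2.19 FPKM in WT (median 0.597) and from 1.05 to 4.29 FPKM in PD-1cKO (median 1.69). Cd226 ranged from 0.241 to 1.19 FPKM in WT (median 0.592) and from 0.442 to 6.19 FPKM in PD-1cKO (median 1.08). The groups overlapped for each receptor: 5, 4 and 5 of the 10 PD-1cKO tumors lay above every WT tumor for Cd28, Icos and Cd226.

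Cd28 rose by 1.21 ± 0.33 on the log2 scale (SE; 2.32-fold, adjusted p = 0.0075) and Icos by 1.45 ± 0.32 (2.74-fold, adjusted p = 0.0027). Cd226 differed by 1.09 ± 0.40 and was not called (adjusted p = 0.033). Of the 8 members tested, 2 were called higher, beside 4.2% of 15075 genes. The 2 tumors that stood apart, PD-1cKO replicates 4 and 8, had the highest Cd28 (4.50 and 5.16 FPKM) and Cd226 (4.33 and 6.19 FPKM) of the group.

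The call of Cd28 was lost on leaving out any of 11 of the 20 tumors, PD-1cKO replicates 4, 5, 7 and 8 and WT replicates 1, 4, 6, 7, 8, 9 and 10 (adjusted p = 0.011 to 0.015). Icos was called in all 20 of these fits. Without PD-1cKO replicates 4 and 8 together the differences were 0.83 for Cd28 (adjusted p = 0.023), 1.24 for Icos (adjusted p = 0.0098) and 0.62 for Cd226 (adjusted p = 0.13). PD-1cKO replicates 1 to 7 carry identifiers from a run that holds no WT tumor. With the runs as a covariate the differences were 1.93 for Cd28, 2.26 for Icos and 1.93 for Cd226, with 0 of all genes called. Those differences rest on PD-1cKO replicates 8, 9 and 10, the only ones that share a run with WT tumors. Replicate 8 had the highest Cd28, Icos and Cd226 of its group (5.16, 4.29 and 6.19 FPKM), so the larger values are not read as a larger effect.

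The receptors were then set against T-cell markers, to ask whether they rose more than the T-cell RNA of the same tumor. The 6 markers were Cd3d, Cd3e, Cd3g, Cd2, Cd5 and Cd6, and 6 of 6 were called higher at day 15 and in PD-1cKO. Their summed FPKM was 6.3 to 11.9 in isotype and 22.6 to 97.8 in PD-1 Ab tumors at day 15, and 7.16 to 27.3 in WT and 19.4 to 93.4 in PD-1cKO tumors. Cd3d, Cd3e, Cd3g and Cd2 were at 0 in all cultures.

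Relative to the mean log2 value of these markers, 0 of 3 receptors were called in each comparison. At day 15 the remaining difference was 0.09 for Cd28 (95% confidence interval -0.92 to 1.10), 0.55 for Icos (-0.37 to 1.48) and 0.14 for Cd226 (-0.96 to 1.23). In PD-1cKO tumors it was -0.43 for Cd28 (-0.87 to 0.0036), -0.20 for Icos (-0.70 to 0.31) and -0.56 for Cd226 (-1.11 to -0.0044, adjusted p = 0.051). At day 11 it was 0.01, -0.33 and -0.61. At day 15 with 1 FPKM added in place of 0.1, Cd28 and Cd226 turned to -0.70 and -0.85.

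A large share of the table was called in these marker-relative fits, since subtracting markers that rose lowers every other gene: 45.2% of genes at day 11, 91.9% at day 15 and 86.9% in PD-1cKO. By unadjusted p under 0.05, the number of receptors was 0 at day 11, 0 at day 15 and 1 (Cd226) in PD-1cKO, and the number of genes was 12678, 14336 and 14226.

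**Figure D3:**
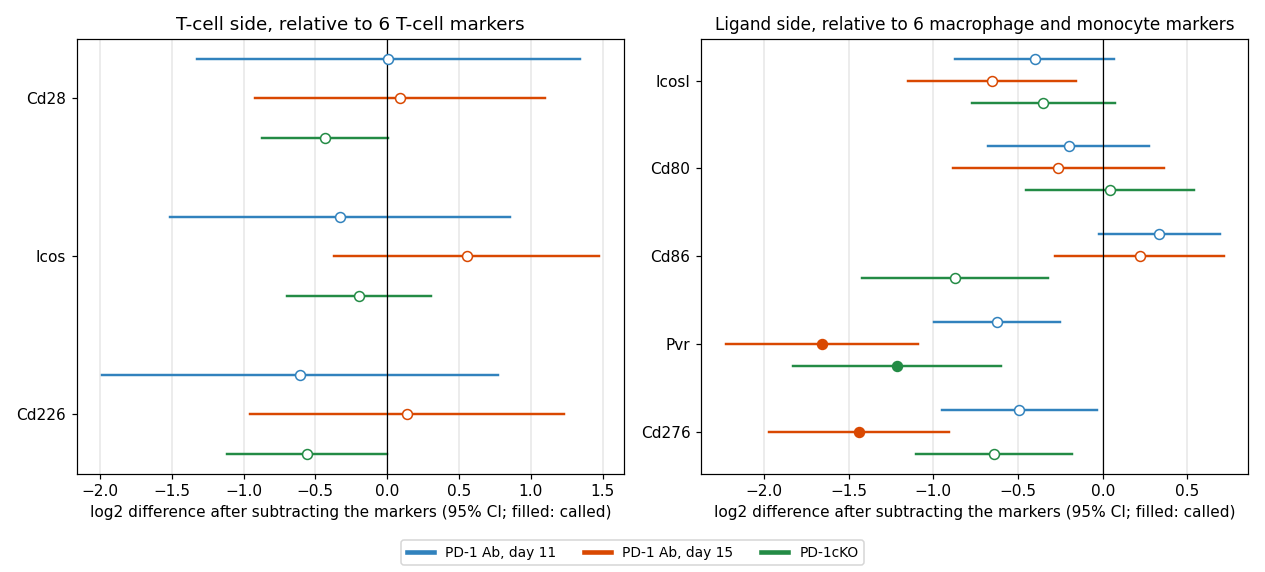
Log2 differences with 95% confidence intervals after the mean log2 value of 6 markers was subtracted in each tumor, T-cell markers for the receptors (left) and macrophage and monocyte markers for the ligands (right). No receptor is called in any comparison, in fits where 45.2% to 91.9% of all genes are called. Pvr and Cd276 are called lower at day 15, beside 67.3% of genes, and Pvr in PD-1cKO, beside 43.5% of genes. Subtracting markers that rose lowers every other gene.

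Of the CD28 ligands, Cd86 was called at day 15 and Cd80 was not. CD86 is carried by resting and activated presenting cells, while CD80 appears mostly after activation. Cd86 was 5.60, 7.72, 6.60, 8.80 and 8.77 FPKM in isotype tumors at day 15 and 22.7, 26.4, 27.7, 13.8 and 15.3 FPKM in PD-1 Ab tumors. Every treated tumor was above every control. The group means differed by 1.45 ± 0.21 on the log2 scale (SE; 2.73-fold, 95% confidence interval 1.98 to 3.77, limma adjusted p = 0.0014).

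Cd80 was lower in level than Cd86 in the tumors. It was 1.33, 0.806, 2.16, 1.53 and 1.23 FPKM in isotype tumors at day 15 and 3.43, 3.53, 3.31, 2.19 and 1.71 FPKM after PD-1 Ab. In 4 of 5 treated tumors it exceeded every control, and the difference of 0.97 ± 0.28 (SE; 1.96-fold) was not called (adjusted p = 0.027). Without PD-1 Ab replicate 5 it was 1.13 with an adjusted p of 0.0085.

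At day 11 Cd86 was 3.21, 7.86, 8.07, 11.1 and 5.55 FPKM in isotype tumors and 10.9, 19.2, 11.1, 15.2 and 17.0 FPKM in PD-1 Ab tumors. The ranges overlapped only through 1 treated tumor at 10.9 FPKM, and the difference of 1.10 ± 0.32 (SE) had an adjusted p of 0.41. Cd80 differed by 0.57 ± 0.34 (adjusted p = 0.83).

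In the deletion study neither ligand of CD28 passed. Cd86 ranged from 3.71 to 7.91 FPKM in WT (median 5.35) and from 3.01 to 9.17 FPKM in PD-1cKO (median 4.82). Of the 10 PD-1cKO tumors, 2 were above every WT tumor and 4 were below every WT tumor. The difference was -0.13 ± 0.20 on the log2 scale (95% confidence interval -0.56 to 0.29, adjusted p = 0.61), and it turned to between 0.00025 and 0.038 under other scalings of the samples.

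Cd80 ranged from 0.584 to 1.85 FPKM in WT (median 0.817) and from 0.821 to 3.72 FPKM in PD-1cKO (median 1.68). Its difference of 0.78 ± 0.25 (SE; 1.72-fold) did not reach the call (adjusted p = 0.016). The ratio of mean Cd86 to mean Cd80 was 5.72 in WT and 2.93 in PD-1cKO tumors, against 5.33 in isotype and 7.47 in PD-1 Ab tumors at day 15.

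The response to antibody at day 15 and the difference between PD-1cKO and WT were compared in 1 contrast over the 4 groups. For Cd86 the antibody response was larger by 1.58 ± 0.34 on the log2 scale (SE; 95% confidence interval 0.89 to 2.27, adjusted p = 0.026). That is short of the threshold of 0.01, at which 0 of 8 members and 0.0975% of 16404 genes were called by limma. Without PD-1cKO replicate 9 the difference of Cd86 was 1.68 (adjusted p = 0.0070). At an adjusted p under 0.05, Cd86 was the 1 member to pass, beside 0.573% of genes. The receptors differed by 1.41 for Cd28, 1.64 for Icos and 1.58 for Cd226 (adjusted p = 0.22, 0.17 and 0.26), and 4 members and 2585 genes had an unadjusted p under 0.05. The models differ in animals, day of excision and share of short noncoding RNA, and these cannot be told apart from the means of blocking PD-1.

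Icosl, the ligand of ICOS, was 6.13, 5.00, 4.56, 6.88 and 6.08 FPKM in isotype tumors at day 15. It was 8.43, 8.66, 8.65, 10.9 and 6.49 FPKM in PD-1 Ab tumors, with 4 of 5 above every control. The difference was 0.58 ± 0.16 (SE; 1.49-fold, adjusted p = 0.023). In PD-1cKO tumors Icosl ranged from 2.91 to 4.37 FPKM against 2.24 to 3.44 FPKM in WT, and 8 of 10 tumors exceeded every WT tumor. Its difference of 0.39 ± 0.11 (1.31-fold) had an adjusted p of 0.0070 by limma, under the threshold in p but not in fold. With no fold limit, 8.78% of genes were called higher.

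Pvr at day 11 was 10.4 to 37.2 FPKM in isotype and 24.0 to 30.2 FPKM in PD-1 Ab tumors, with a difference of 0.14 ± 0.31 (SE, adjusted p = 0.85). It was 27.7, 30.9, 26.3, 27.1 and 30.8 FPKM in isotype tumors at day 15 and 19.9, 19.5, 21.1, 20.96 and 24.9 FPKM in PD-1 Ab tumors. All 5 treated tumors lay below all 5 controls, a separation that 6.12% of genes showed. The log2 difference was -0.43 ± 0.09 (SE; 0.74 of the control level, 95% confidence interval 0.65 to 0.86, adjusted p = 0.0093). That passes in p and not in fold. With no fold limit, 1.56% of genes were called lower.

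In the deletion study Pvr ranged from 15.3 to 22.2 FPKM in WT (median 18.2) and from 5.83 to 23.3 FPKM in PD-1cKO (median 13.98). Its difference was -0.47 ± 0.21 (SE, adjusted p = 0.070), and 5 of 10 PD-1cKO tumors lay below every WT tumor. The lowest were replicates 8, 4 and 5 at 5.83, 8.08 and 8.10 FPKM. These tumors also had the highest shares of short noncoding RNA of the group, at 66.5%, 64.0% and 61.5% of the FPKM. Replicate 9, with the highest Pvr at 23.3 FPKM, had the lowest share, 31.1%. The part of that share in the Pvr difference was not tested. Without replicates 4 and 8 the difference was -0.25 (adjusted p = 0.26). Pvr overlaps the antisense genes Gm16184 and Gm16251, which reached at most 2.71 and 0.207 FPKM in any sample.

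Cd276 was 24.3, 24.4, 20.7, 21.5 and 25.7 FPKM in isotype tumors at day 15 and 17.2, 19.7, 20.9, 22.6 and 20.6 FPKM in PD-1 Ab tumors. The groups overlapped, and the difference of -0.21 ± 0.10 (SE) did not pass (adjusted p = 0.15). In the deletion study it was 7.63 to 12.3 FPKM in WT and 6.59 to 13.1 FPKM in PD-1cKO (difference 0.10 ± 0.12, adjusted p = 0.52). A share of 9.92% of the 50-base stretches of Cd276 transcripts also occurs in the overlapping gene Gm10657, which was at most 0.969 FPKM in any sample.

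Vtcn1 passed the filter on low values in no comparison, which makes it the 1 member of 9 with no test. It was listed at 0 in all baseline and all isotype day 11 tumors and in 8 of 10 WT and 9 of 10 PD-1cKO tumors. Its highest values were in PD-1 Ab tumors at day 15, at 0.274, 0.194, 0.0358, 0.32 and 0 FPKM. At such levels no direction was read.

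Ligands were set against macrophage and monocyte markers (Csf1r, Adgre1, Cd68, Mrc1, Fcgr1 and Mertk), cells that carry CD80, CD86 and ICOSL. At day 15, 4 of the 6 markers were called higher, and their summed FPKM was 139 to 180 in isotype and 229 to 526 in PD-1 Ab tumors. In the deletion study 1 of 6 (Cd68) was called, with sums of 163 to 324 in WT and 245 to 714 in PD-1cKO tumors. Relative to these markers Cd86 differed by 0.22 at day 15 (95% confidence interval -0.28 to 0.71), Cd80 by -0.26 (-0.89 to 0.36) and Icosl by -0.66 (-1.15 to -0.16, adjusted p = 0.016). None of these 3 was called.

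Pvr and Cd276 were called lower at day 15 relative to the same markers, at -1.66 and -1.44, as were 67.3% of genes. The median over all genes in that fit was -1.27. In PD-1cKO tumors Pvr was called lower at -1.21, beside 43.5% of genes. Cd86 did not reach 2-fold there, and its difference relative to the markers was -0.87 (-1.42 to -0.32, adjusted p = 0.0053). It was -1.09 relative to Csf1r alone and -1.02 without PD-1cKO replicate 9, and both of these were called. In those fits 8907 of 15075 and 7658 of 15074 genes were called lower. The median over all genes was -0.945 in the main fit, -1.16 with Csf1r alone and -1.04 without replicate 9, so Cd86 lay near the typical gene. At day 11, 0 of 5 ligands and 0.0% of genes were called, with 2 ligands (Pvr and Cd276) and 8642 genes at an unadjusted p under 0.05.

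Single members of other marker lists were called higher at day 15: 1 of 5 stromal and endothelial markers (Pecam1), 2 of 6 adipose and muscle markers (Plin1 and Acta1), 1 of 4 NK-cell markers (Klre1) and 1 of 4 Treg markers (Il2ra). The summed adipose and muscle markers were 7.17 to 76.8 FPKM in isotype and 63.4 to 660 FPKM in PD-1 Ab tumors, the NK-cell markers 1.83 to 2.67 and 3.18 to 9.05 FPKM, and the Treg markers 3.48 to 5.04 and 6.14 to 8.74 FPKM. Of 6 dendritic cell markers 2 (Xcr1 and Clec9a) were called higher, while the sum of the list was 199 to 299 FPKM in isotype and 157 to 217 FPKM in PD-1 Ab tumors. In MC-38 culture the dendritic cell list summed to 174 to 184 FPKM, the Treg list to 4.01 to 4.78 FPKM and the NK-cell list to 1.2 to 1.47 FPKM. The sums of these lists in tumors are thus not levels of those cells alone. No B-cell marker was called by limma in the 3 treatment comparisons (1, 4 and 1 of 5 were tested). In PD-1cKO tumors 2 of 5 stromal and endothelial markers (Col1a1 and Col3a1) and 1 of 3 Treg markers tested (Ccr8) were called higher, and 0 of 3 NK-cell markers tested. Their part in the differences of the receptors and ligands was not tested.

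**Figure D4:**
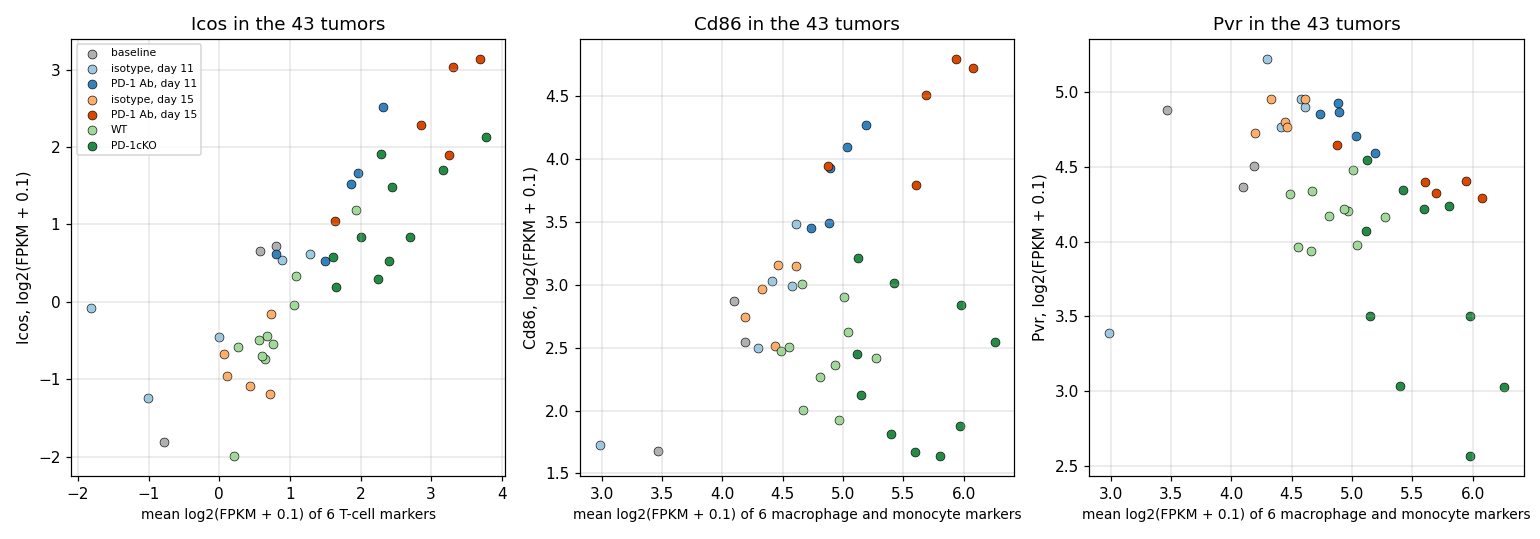
Each point is 1 of 43 tumors, with the mean log2(FPKM + 0.1) of 6 markers on the x axis and 1 member on the y axis. Levels are read within each study. In the antibody study the highest Icos values, 8.08 and 8.72 FPKM, are those of PD-1 Ab tumors at day 15 with high T-cell marker means. The highest Cd86 values of that study are also in PD-1 Ab tumors at day 15, and its lowest Pvr value is that of the mitochondria-rich isotype day 11 tumor. In the tamoxifen study the lowest Pvr values are those of PD-1cKO tumors.

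The summed level of the receptors was small beside that of the ligands in every group. At day 15 the 3 receptors summed to a median of 0.868 FPKM in isotype tumors and 8.5 FPKM in PD-1 Ab tumors, while the 6 ligands summed to 65.9 and 71.9 FPKM. In the deletion study the receptor sums were 1.67 FPKM in WT and 4.23 FPKM in PD-1cKO, and the ligand sums 35.6 and 33.1 FPKM. Pvr and Cd276 made up most of the ligand sum.

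Within groups, the receptors varied together. Over the 43 tumors, the deviations from the group means of log2(FPKM + 0.1) correlated at r = 0.77 between Cd28 and Icos, 0.76 between Cd28 and Cd226 and 0.75 between Icos and Cd226. Cd80 followed the receptors (r = 0.78 with Cd28, 0.61 with Icos, 0.66 with Cd226), and Cd86 less closely (0.66, 0.57 and 0.46). Pvr and Cd276 correlated with each other (r = 0.75) and negatively with Cd226 (-0.49 and -0.38). Within the 23 antibody and baseline tumors and the 20 tamoxifen tumors, r was 0.73 and 0.83 for Cd28 with Icos, 0.58 and 0.93 for Cd28 with Cd226, and 0.79 and 0.71 for Icos with Cd226. It was 0.87 and 0.43 for Cd28 with Cd86, 0.75 and 0.81 for Cd28 with Cd80, 0.93 and 0.71 for Pvr with Cd276, and -0.44 and -0.52 for Cd226 with Pvr. Tumors of a group share its treatment and not their content of immune cells, and these values are given without a test.

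Genes whose deviations were most like those of a member were looked up among 13228 genes that averaged 1 FPKM or more in tumors. For Cd28 they were Gimap3, Cd27, Lat, Ikzf3 and 2010016I18Rik (r = 0.91 to 0.87), and for Icos they were Cd8a, Ptpn22, Cd3g and Gimap3 (r = 0.85 to 0.84). Cd226 was nearest to Cd48, Id2, Arhgap15, Gnpda2 and Gimap3 (r = 0.88 to 0.82). Gimap3, a GTPase of lymphocytes, was thus on all 3 receptor lists and on that of Cd80.

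For Cd80 the 5 genes were Rasal3, Sytl2, Lat, Gimap3 and Cd28 (r = 0.79 to 0.78), and for Cd86 they were Havcr2, Lpar6, Gpr65, Dock10 and Gpr171 (r = 0.87 to 0.81). Havcr2 encodes TIM-3, a coinhibitory receptor of T cells and myeloid cells. Icosl was nearest to Mapk14, E2f2, Rap1gap2, Cpne2 and Gbgt1 (r = 0.91 to 0.88). Pvr was nearest to Map4, Acvr1, Mapk1ip1l and Epn2 (r = 0.94 to 0.93), and Cd276 to Ckap4, Dctn1, Clstn1, Tsc2 and Pofut2 (r = 0.94 to 0.93). Isotype day 11 replicate 1, the tumor lowest of its group for Icosl, Pvr and Cd276, is part of these correlations.

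The receptors that compete for the same ligands rose along with the members. Ctla4, the inhibitory partner of Cd28, was 0.834 ± 0.330 FPKM in isotype and 4.71 ± 1.92 FPKM in PD-1 Ab tumors at day 15 (SD, n = 5; 4.99-fold, adjusted p = 0.0011). Tigit rose 6.44-fold to 9.54 ± 3.80 FPKM and Cd96 7.23-fold to 2.48 ± 1.02 FPKM (adjusted p = 0.00097 and 0.0018). Nectin2, the other ligand of CD226 and TIGIT, was 14.4 ± 1.35 FPKM in isotype and 12.03 ± 1.08 FPKM in PD-1 Ab tumors (adjusted p = 0.083).

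The ratio of mean Ctla4 to mean Cd28 was 3.78 in isotype and 2.35 in PD-1 Ab tumors at day 15, and 2.15 in WT and 1.69 in PD-1cKO tumors. The ratio of mean Tigit to mean Cd226 was 9.94 and 6.12 at day 15, and 2.56 in both WT and PD-1cKO. The ratio of mean Cd96 to mean Cd226 was 2.0 in isotype and 1.59 in PD-1 Ab tumors at day 15, and 0.85 in WT and 1.06 in PD-1cKO tumors. Ctla4 and Tigit were thus above their costimulatory partners in each of these groups, while Cd96 was below Cd226 in WT tumors. No test was made of these ratios.

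Of 11 related receptors and ligands, 8 were called higher at day 15 and 6 in PD-1cKO, with medians of 2.14 and 1.04 on the log2 scale beside -0.04 and -0.20 over all genes. Pdcd1lg2, which encodes the PD-1 ligand PD-L2, led at day 15 with 11.8-fold (adjusted p = 0.00081), ahead of Cd96 and Tigit. In PD-1cKO tumors Ctla4 was 2.33-fold, Tigit 2.85-fold and Cd96 2.95-fold higher than in WT (adjusted p = 0.0020, 0.00093 and 0.0025).

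Signal carriers downstream of CD28 followed in part. Of 15 genes, 14 were tested at day 15 and 8 were called higher, among them Lck, Grap2, Vav1, Pik3cd, Prkcq and Lcp2. Prkcq, which encodes protein kinase C theta, was 5.38-fold higher, and Lck, the kinase bound to CD4 and CD8, was 4.60-fold higher (adjusted p = 0.0010 and 0.0017). Lck, Pik3cd and Prkcq were called higher in PD-1cKO as well. Il2, the cytokine that CD28 signals raise, did not pass the filter on low values in any comparison. At day 11, 0 of 14 of these genes and 0 of 11 related receptors and ligands were called.

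Baseline tumors were compared with isotype tumors of day 15 as untreated tumors against tumors that had grown on under isotype control. The groups also differ in isotype dosing and in the run of sample identifiers, which cannot be told apart from growth. Of the 6 members tested 0 were called, beside 0.595% of 14967 genes, and 1 member (Cd80) and 2647 genes had an unadjusted p under 0.05. Cd80 was 0.911, 0.881 and 0.468 FPKM at baseline, with a log2 difference of -0.81 ± 0.34 (SE, adjusted p = 0.25). Icos was 1.56, 1.48 and 0.184 FPKM in the 3 baseline tumors, so that 2 lay above and 1 below every isotype tumor of day 15.

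Among the antibody and baseline groups, the means of Cd28, Icos, Cd226, Icosl, Cd80 and Cd86 were highest in PD-1 Ab tumors at day 15. Next were PD-1 Ab tumors at day 11, for Icosl by 5.79 against 5.73 FPKM in isotype tumors at day 15. Vtcn1 means had the same order, at levels where no direction was read. The ranges of the 2 PD-1 Ab groups overlapped for each of the 9 genes. For Cd86 the lowest PD-1 Ab tumor at day 11 (10.9 FPKM) was above the highest isotype tumor at day 15 (8.80 FPKM). Cd276 and Pvr had their antibody-group means between 20.2 and 28.6 FPKM.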

How the data were processed

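Total RNA from 46 bulk samples was sequenced with a ribosomal RNA-depleted stranded kit as paired reads of 50 bases. The authors aligned them to the mouse genome build B38 with OSA in Omicsoft Array Studio 10.0.1.118 and quantified the genes of Ensembl release 86. The values deposited by the authors are FPKM. Counts cannot be rebuilt from them, so the depth of each sample is unknown and precision is the spread between replicates. The paper gives only a range of mapped reads over all samples. The share of short noncoding RNA differed between the antibody and the tamoxifen study and among the tamoxifen tumors. Its effect on the FPKM of other genes was not tested.

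Groups came from the sample labels. The log2 of FPKM + 0.1 was fitted with limma 3.58.1 in R 4.3.3 (eBayes with a trend) for genes averaging 0.5 FPKM or more in 1 of the groups, and p-values were adjusted by Benjamini-Hochberg over all genes tested. A call needed an adjusted p below 0.01 and a 2-fold change (no fold limit in the contrast between models). No sample was left out of the main fits. Symbols, positions and exons came from GENCODE M21 for 99.1% of identifiers. Named genes were the 9 members, Ctla4, Tigit, Cd96 and Nectin2, the 3 called genes with the largest differences at day 15 in each related list, and the 5 genes most like each member, of which some are not reported here. In the marker-relative fits the mean log2 value of 6 markers was subtracted in each tumor before the same test.

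The members and lists were chosen with earlier results of these data known. The fits were tested on simulated data: of 200 genes shifted by a log2 value of 2 they called 61% at day 11 (14576 genes tested), 89% at day 15 (14808), 94.5% for PD-1cKO (14861), 84.5% for culture (14349), 78.5% for baseline (14740) and 86% for the contrast (14953). The alternatives were 1 FPKM added, a filter at 1 FPKM or none, 3 scalings (median-of-ratios, upper-quartile, protein-coding sum), eBayes without a trend, 1.5-fold or no fold limit, all tumor groups in 1 fit, identifier runs as a covariate, a replicate block, a single marker and leaving out each replicate. Leaving out PD-1cKO replicates 4 and 8 together was added after seeing the data. Python 3.11.15, numpy 2.4.6, pandas 2.3.3 and matplotlib 3.10.9 were used.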

Additional observations from a re-analysis of the deposited data

Results flagged for a closer look

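In the tumor labelled isotype day 11 replicate 1, Icosl (0.9968 FPKM), Pvr (10.38 FPKM) and Cd276 (5.061 FPKM) lay far below the other 4 tumors of the group. The same tumor had 54.6% of its FPKM in mitochondrial genes, and the part of that in the low values was not tested.

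Vtcn1 was 0.0957 FPKM in isotype day 15 replicate 1 and 0.1969 FPKM in PD-1cKO replicate 8, with all other tumors of each group listed at 0. In all, 5 of 53 sets of a member's values in 1 group held a sample far from the rest, and chance flags about 1 in 20 groups.

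The response of Cd86 to PD-1 Ab at day 15 exceeded its difference between PD-1cKO and WT by 1.58 on the log2 scale (limma, adjusted p = 0.026). This was a test of the difference itself.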

How the results depend on the processing

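In PD-1cKO against WT, the 2 members called became 0 with 1 FPKM added, with identifier runs as a covariate or with a replicate block, and 1 without a filter or without PD-1cKO replicates 4 and 8. Leaving out single replicates gave 1 to 2 there, 3 to 5 at day 15, 4 to 5 against culture, 0 to 1 for the contrast between models (1 without PD-1cKO replicate 9) and 1 to 2 for the marker-relative ligands in PD-1cKO (2 without PD-1cKO replicate 9). That last count, 1, became 2 with no fold limit or with Csf1r alone, and the contrast called 1 member with 1 FPKM added. Same-numbered tumors did not deviate together (correlations of -0.241 to 0.176, above 0.1 in 1 of 5 pairs at day 11, 0 of 5 at day 15 and 1 of 10 in PD-1cKO). That does not decide whether the numbers mark a shared litter or day, which need not show in deviations over the whole table. With the replicate block 3 members were called at day 15 (Cd86 had an adjusted p of 0.011), and the calls over all genes were 316 against 799.

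At day 11, Icosl turned to -0.17, Pvr to -0.27 and Cd276 to -0.18 with identifier runs, and Pvr to -0.11, -0.13 and -0.10 under median-of-ratios, upper-quartile and protein-coding scaling. Leaving out replicates gave -0.15 to 0.57 for Icosl, -0.17 to 0.29 for Pvr and -0.19 to 0.43 for Cd276. The all-gene median there moved from 0.259 to 0.0103, -0.0101 and 0.0191 under those scalings. In PD-1cKO, Cd86 turned to 0.026, 0.038 and 0.00025 under those scalings and to 0.25 with runs, and Cd276 to -0.16 with runs. The 633 genes higher and 584 lower became 924 and 339, 945 and 315, and 832 and 331.

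In the contrast between models, median-of-ratios and upper-quartile scaling gave Icosl -0.028 and -0.080, Cd80 -0.034 and -0.082, and Pvr -0.17 and -0.22 (-0.033 with protein-coding scaling, -0.079 to 0.14 without single replicates). Relative to T-cell markers, Cd28 at day 11 turned to -0.64 with Cd3e alone and -0.33 with 1 FPKM added, and Cd28 and Cd226 at day 15 to -0.70 and -0.85 with 1 FPKM added. Without single replicates Cd28 spanned -0.066 to 0.11 and Icos -0.50 to 0.10 at day 11, and Cd28 -0.030 to 0.30 and Cd226 -0.049 to 0.45 at day 15. Relative to macrophage markers, Cd86 at day 15 turned to -0.0131 with Csf1r alone, and Cd80 in PD-1cKO to -0.18 with Csf1r alone, -0.24 with 1 FPKM added and -0.066 to 0.13 without single replicates. The cause was not tested for any of these.

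Without a filter, calls over all genes were 450 against 799 at day 15, and with 1 FPKM added 617 against 1217 in PD-1cKO. FPKM give no depth, so how far counting error limits the lowest receptors is unknown.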
